A study of Mus musculus with 20 samples.

Results

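Dio2, Thra, Thrb and Slc16a10 are 4 genes of thyroid hormone uptake, activation and reception. They were followed by gene symbol in hearts of Sorbs2 knockout and wild-type mice, out of 18657 genes listed at 6 months of age and 17808 listed at 6 weeks. The 4 were chosen with earlier results of these data known, so their levels and changes are given as a description, without a test. All 4 had rows at both ages and passed the filter on low values, a normalised count of at least 10 in at least 4 libraries at 6 months or 3 at 6 weeks.

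RNA of 20 hearts was sequenced in 5 groups. At 6 weeks there were 3 Sorbs2 knockout mice (KO) and 3 wild-type mice (WT). At 6 months there were 4 knockout mice that had received AAV9-Tnnt2-Sorbs2 on postnatal day 2 (KO+AAV), 5 untreated KO mice and 5 untreated WT mice. AAV9-Tnnt2-Sorbs2 is an adeno-associated virus that carries Sorbs2, an adaptor protein of the cytoskeleton, under the cardiomyocyte promoter of Tnnt2. The KO+AAV hearts therefore differ from WT hearts in genotype and in having received a virus, and no group given an empty virus is analysed here. The labels name left ventricle as the tissue and give no sex, strain or knockout design. Values are normalised counts in a separate table for each age, so levels are compared within an age only.

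Thyroid hormone leaves the thyroid gland mostly as thyroxine, which binds its receptors weakly. Transporters of the cell membrane bring it into cells, where outer-ring deiodinases convert it into the active triiodothyronine and the type 3 deiodinase inactivates both. Triiodothyronine binds nuclear receptors that sit on response elements together with a retinoid X receptor, and in the heart it is known to raise Myh6, the fast myosin heavy chain, and to lower Myh7, the slow one. Dio2 encodes the type 2 deiodinase, which activates thyroxine inside the cell. Thra and Thrb encode the receptors, of which the Thra product is the main one in cardiomyocytes. Slc16a10 encodes a transporter of aromatic amino acids and thyroid hormones.

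Dio2 carries the largest changes, and its sequence is shown at the codon that makes it a deiodinase. On mouse build GRCm38 (mm10) it lies on chromosome 12 from 90724552 to 90738438 on the minus strand, with 5815 bases of exon in GENCODE release M21. The deiodinases are selenoproteins: a TGA inside the reading frame is read as selenocysteine, the reactive residue of the active site. In the annotated coding sequence of 266 codons such a TGA stands at codon 130, and another at codon 263. The stretch around the first, chr12:90729778-90729870 on the minus strand, is printed with that TGA in capitals.
Dio2 coding stretch: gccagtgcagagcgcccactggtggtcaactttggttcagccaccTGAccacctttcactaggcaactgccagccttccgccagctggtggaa

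Upstream of its start, Dio2 is known for a cyclic AMP response element through which adrenergic signals raise it in brown fat. The 250 bases before the RefSeq start of Dio2, chr12:90739039-90739288 on the minus strand of GRCm38.p6, hold 1 copy of the palindrome TGACGTCA, printed in capitals at base 156. RefSeq puts this start upstream of the first base that GENCODE gives.
Dio2 promoter: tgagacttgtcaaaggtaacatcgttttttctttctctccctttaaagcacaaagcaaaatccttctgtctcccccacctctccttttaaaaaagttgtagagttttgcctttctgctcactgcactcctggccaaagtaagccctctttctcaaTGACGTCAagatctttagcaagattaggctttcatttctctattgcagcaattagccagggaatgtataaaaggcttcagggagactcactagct

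Windows of 250 bases before to 50 after a start were searched on both strands in the RefSeq promoter table, which held 4 windows for 3 of the 4 genes and none for Thra. TGACGTCA stood in 1.79% of all 32851 windows, and its shorter form TGACG, which lies inside it, in 20.8%. The thyroid hormone receptor half-site AGGTCA stood in 16.3% of all windows and in 1 of the 2 Thrb windows, at base 67. The Dio2 and Slc16a10 windows did not hold AGGTCA, and no window of these genes held the direct repeat of 2 AGGTCA copies with any 4 bases between them, which stood in 0.0152% of all windows.

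The normalised counts of a library summed to between 11359135 and 13670340 at 6 months, lowest in KO libraries, and to between 6705133 and 8240294 at 6 weeks. The reads behind each value were not recovered. Sorbs2 itself averaged 11016 ± 6762 in KO+AAV (SD, n = 4), 1020.5 ± 625 in KO (SD, n = 5) and 5040.2 ± 369 in WT hearts (SD, n = 5) at 6 months, and 325 ± 45.3 in KO and 1717 ± 292 in WT hearts (SD, n = 3 each) at 6 weeks. Among the KO hearts at 6 months, replicates 1 and 5 stood apart, with 1648 and 1755 for Sorbs2 against 494 to 612 in the other 3. Xist was expressed in 2 of 4 KO+AAV, 0 of 5 KO and 2 of 5 WT libraries at 6 months and in 1 of 3 libraries of each group at 6 weeks. The ventricular label was checked against the atrial genes Myl7, Myl4, Sln and Nppa. At 6 months Myl7 reached at most 459 and Myl4 at most 634, but at 6 weeks up to 35244 and 33896, so atrial transcripts were present among the libraries at 6 weeks. Sln reached at most 89.9 at 6 months and 8222 at 6 weeks. Nppa, a natriuretic peptide that stressed ventricles also make, reached 126811 at 6 months and 154430 at 6 weeks. It made up nearly all of the atrial sum at 6 months, which was 7752 to 32734 in KO+AAV, 37420 to 126865 in KO and 5916 to 9973 in WT hearts, higher in KO without overlap.

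Dio2 was the gene of the 4 with the largest change at 6 months. KO hearts had 459, 327, 283, 281 and 494 normalised counts in replicates 1 to 5, and WT hearts had 26.4, 24.7, 18.9, 26.6 and 24.8. Every KO heart stood more than 10-fold above every WT heart. The means were 369 ± 101 in KO and 24.3 ± 3.15 in WT (SD, n = 5 each), a 15.2-fold ratio, and the log2 change was 3.84 with a standard error of 0.28. Log2 changes are differences of mean log2(normalised count + 1) from limma, a linear model fitted to all genes, which understates changes of low genes. By size, Dio2 ranked 39 from the top among the 13419 genes tested.

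In KO hearts that had received the Sorbs2 virus, Dio2 lay near the level of WT hearts. The 4 KO+AAV hearts had 18.1, 34.4, 66.2 and 28.5 normalised counts, against 281 to 494 in KO hearts, and no KO+AAV value reached the lowest KO value. Their mean of 36.8 ± 20.7 (SD, n = 4) was 9.98% of the KO mean. The log2 change of KO+AAV against KO was -3.40 with a standard error of 0.29, rank 19 from the lowest of 13419 genes. Against WT it was 0.44 with a standard error of 0.29. The 2 groups overlapped through KO+AAV replicate 1 alone, while KO+AAV replicates 2, 3 and 4 lay above every WT heart. KO+AAV replicate 3, with 66.2, was the highest of that group, and without it the difference from WT was 0.11. Comparisons of KO with WT and of KO+AAV with KO share the 5 KO libraries and are not independent of each other.

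At 6 weeks the difference in Dio2 was small and the groups overlapped. The KO libraries named KO2, KO3 and KO4 had 52.9, 113.7 and 58.1 normalised counts, and the WT libraries named WT1, WT6 and WT16 had 38.8, 67.5 and 32.1. Means were 74.9 ± 33.7 in KO and 46.1 ± 18.8 in WT (SD, n = 3 each), a log2 change of 0.67 with a standard error of 0.37. WT6 lay above KO2 and KO4. The KO effect on Dio2 was 3.17 larger at 6 months than at 6 weeks on the log2 scale, with a standard error of 0.46.

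**Figure D1:**
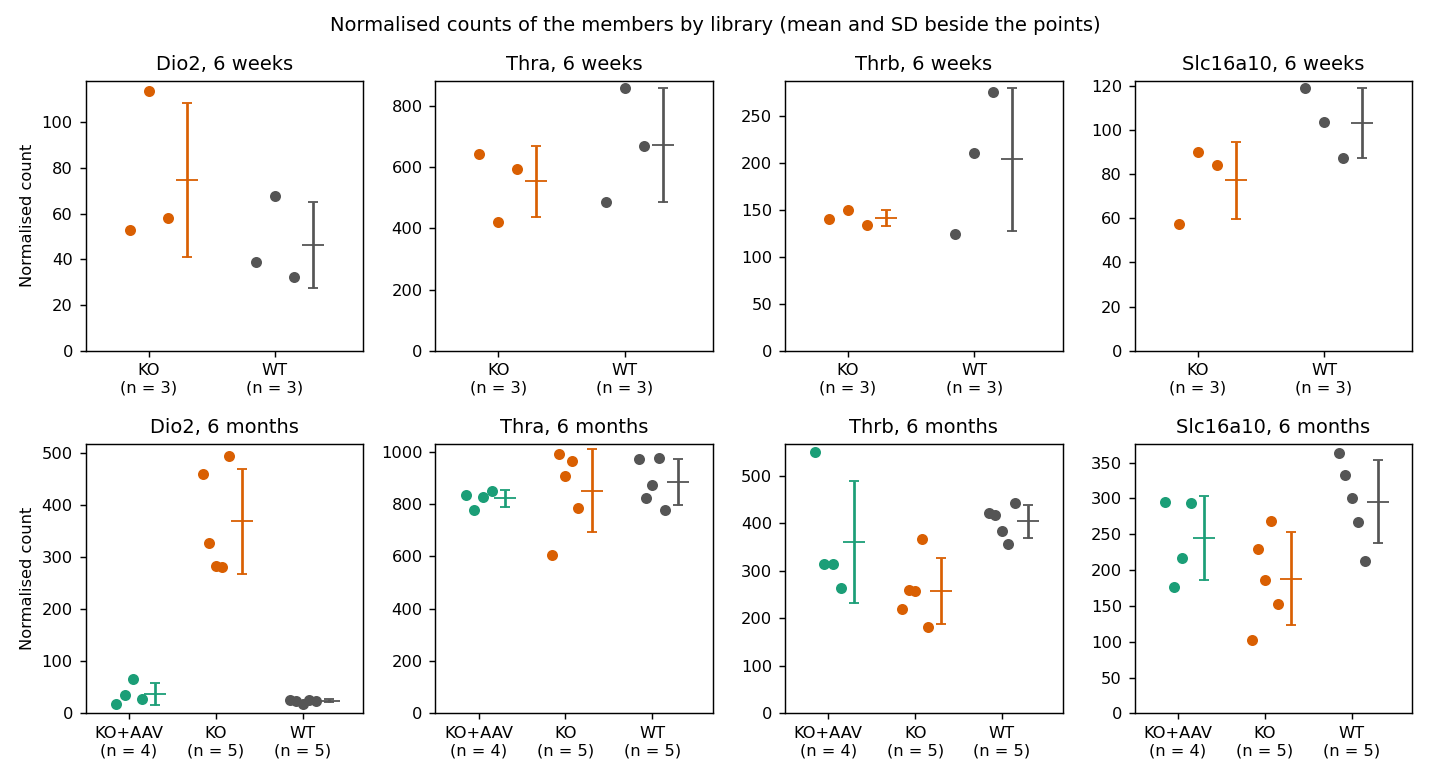
Normalised count of Dio2, Thra, Thrb and Slc16a10 in each library (points) by group, with the group mean and SD, at 6 weeks and at 6 months. At 6 months the 5 KO hearts lie at 281 to 494 for Dio2, above all KO+AAV and WT hearts; for the other 3 genes the groups overlap.

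Dio2 is also a gene of brown fat, which lies around the heart and great vessels of the mouse, so it was set beside fat markers. At 6 weeks Ucp1, the uncoupling protein that defines brown fat, had 83.7, 385.1 and 123.1 normalised counts in KO2, KO3 and KO4, against 66.3, 94.7 and 10.004 in WT1, WT6 and WT16. All 7 adipocyte and brown fat markers were listed, and their sum was 808 to 2840 in KO and 470 to 1003 in WT libraries. KO3 was highest in Dio2, in Ucp1, in the fat hormone Adipoq and in Cfd, and without KO3 the log2 change of Dio2 at 6 weeks was 0.33. The part of fat tissue in the values of Dio2 at 6 weeks was not tested.

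At 6 months the fat markers were low and their sums overlapped between the groups. Ucp1 was listed at 0 in 10 of 14 libraries and reached at most 4.80, and Plin1, the coat protein of fat droplets, was listed at 0 in 9 of 14 and reached at most 4.12. The sum of the 7 markers was 543 to 730 in KO+AAV, 454 to 620 in KO and 437 to 617 in WT hearts, most of it Cidea, a lipid droplet protein with up to 646. Of 6 markers of the thyroid gland 4 were listed, and their sum was 20.3 to 31.6 in KO+AAV, 5.75 to 21.8 in KO and 22.5 to 41.8 in WT hearts, lower in KO than in WT without overlap. Most of it was Tg, thyroglobulin, listed above 0 in every library and reaching 38.9. The part of either tissue in Dio2 at 6 months was not tested.

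**Figure D2:**
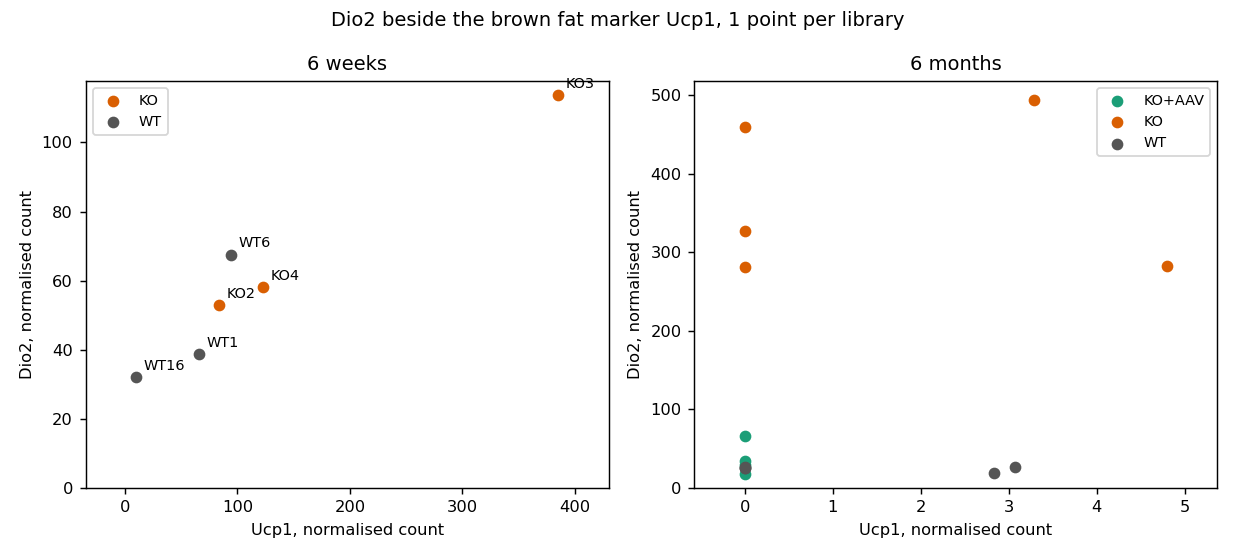
Normalised count of Dio2 (vertical axis) against that of Ucp1 (horizontal axis), 1 point per library coloured by group, at 6 weeks (left) and 6 months (right). At 6 weeks KO3 is highest in both; at 6 months Ucp1 is at most 4.80 in any library while Dio2 is 281 to 494 in the KO hearts.

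Thrb, the beta receptor, moved the other way at 6 months. On GRCm38 it lies on chromosome 14 from 17660261 to 18038090 on the plus strand, with 7403 bases of exon. It had 549, 314, 314 and 263 normalised counts in KO+AAV hearts, 221, 260, 257, 368 and 181 in KO hearts and 423, 417, 384, 356 and 443 in WT hearts. KO replicate 4 was the only KO heart inside the WT range, above WT replicate 4 alone. Means were 360 ± 128 in KO+AAV (SD, n = 4), 258 ± 69.6 in KO and 405 ± 34.6 in WT (SD, n = 5 each). KO against WT gave a log2 change of -0.68 with a standard error of 0.20.

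The KO+AAV hearts lay between the other groups in Thrb and overlapped with both. Against KO the log2 change was 0.46 with a standard error of 0.21, and against WT -0.22 with a standard error of 0.21. KO+AAV replicate 1, with 549, was above every WT heart. At 6 weeks KO2, KO3 and KO4 had 140, 150 and 133, against 125, 210 and 275 in WT1, WT6 and WT16. The KO values were close together and WT1 lay below them, so the groups overlapped, with a log2 change of -0.45 and a standard error of 0.28.

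Thra, the alpha receptor, was the most expressed of the 4 and the one that differed least between groups. On GRCm38 it lies on chromosome 11 from 98740638 to 98769006 on the plus strand, with 4614 bases of exon. It had 836, 775, 825 and 848 normalised counts in KO+AAV hearts, 604, 992, 908, 964 and 783 in KO hearts and 971, 823, 874, 977 and 775 in WT hearts at 6 months. All 3 groups overlapped, and 4 KO hearts lay within the WT range or above it while replicate 1 lay below it. Means were 821 ± 32.1 in KO+AAV (SD, n = 4), 850.4 ± 159 in KO and 884 ± 89.1 in WT (SD, n = 5 each). The log2 change was -0.07 for KO against WT, -0.03 for KO+AAV against KO and -0.10 for KO+AAV against WT, with standard errors of 0.13, 0.14 and 0.14. With libraries scaled to equal totals the first of these was 0.08, so it had no stable sign.

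At 6 weeks Thra had 644, 422 and 594 normalised counts in KO2, KO3 and KO4, against 487, 860 and 668 in WT1, WT6 and WT16. The groups overlapped, with a log2 change of -0.26 and a standard error of 0.24. The end of Thra runs over Nr1d1, a repressor of the circadian clock on the opposite strand, and 263 bases or 5.70% of Thra exon are shared. The libraries kept the strand, but the strand setting of the counting is not given in the sources used here. Nr1d1 ranged from 841 to 1983 in KO+AAV, 1088 to 1551 in KO and 735 to 1575 in WT hearts at 6 months, and its log2 change for KO against WT was 0.22 (adjusted p = 0.602).

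Slc16a10, the transporter, lies on chromosome 10 from 40033532 to 40142258 on the minus strand, with 7356 bases of exon. At 6 months it had 294, 176, 216 and 293 normalised counts in KO+AAV hearts, 102, 229, 187, 268 and 152 in KO hearts and 363, 332, 301, 268 and 213 in WT hearts. KO replicates 1, 3 and 5 lay below every WT heart, and replicates 2 and 4 lay inside the WT range. Means were 245 ± 58.7 in KO+AAV (SD, n = 4), 188 ± 65.0 in KO and 295 ± 58.3 in WT (SD, n = 5 each). The log2 change was -0.70 for KO against WT with a standard error of 0.24, 0.43 for KO+AAV against KO and -0.28 for KO+AAV against WT, each of the last pair with a standard error of 0.25.

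At 6 weeks Slc16a10 had 57.4, 90.1 and 83.9 normalised counts in KO2, KO3 and KO4, against 119, 103 and 87.1 in WT1, WT6 and WT16. KO3 lay above WT16, so the groups overlapped. The log2 change was -0.43 with a standard error of 0.26. Set against 6 months, the KO effect differed by -0.27 for Slc16a10, by -0.23 for Thrb and by 0.19 for Thra, with standard errors of 0.35, 0.34 and 0.28.

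**Figure D3:**
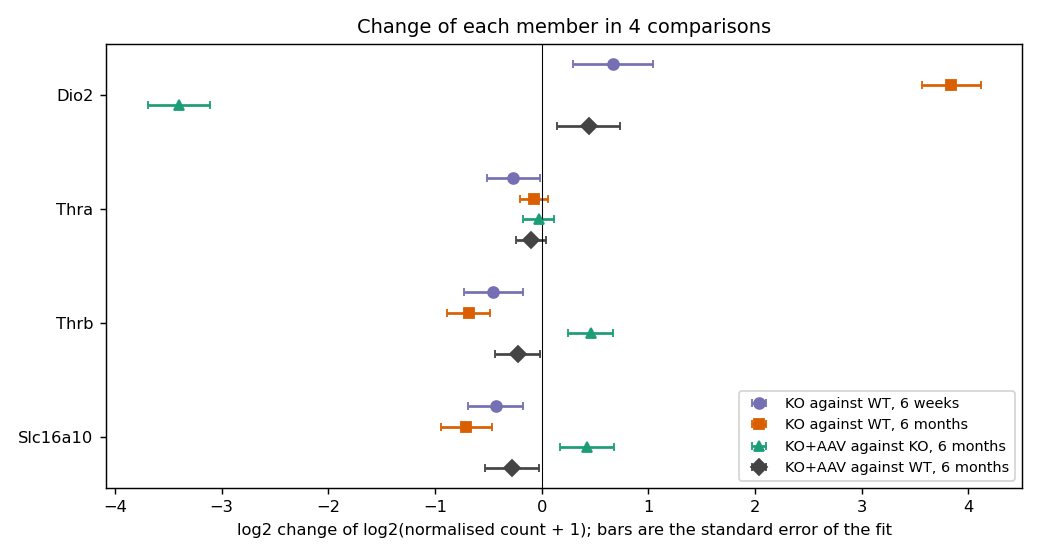
Log2 change of Dio2, Thra, Thrb and Slc16a10 in 4 comparisons (points), with the standard error of the fit (bars). At 6 months Dio2 lies at 3.84 when KO is set against WT and at -3.40 when KO+AAV is set against KO; every other point lies between -0.70 and 0.67.

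Counted by the call used for all genes, a Benjamini-Hochberg adjusted p under 0.05 in limma, Dio2 was among the 8.13% of genes higher in KO than in WT hearts at 6 months, and Thrb among the 8.18% lower. Dio2 was among the 5.69% of genes lower in KO+AAV than in KO hearts. None of the 4 was called at 6 weeks, where 0.589% of all genes were, nor in KO+AAV against WT, where 1.33% were, and 0 of the 4 had an unadjusted p under 0.05 in either, beside 15.4% and 18.3% of all genes. Groups without overlap were found for Dio2 alone, higher in KO than in WT at 6 months as were 6.56% of all genes, and lower in KO+AAV than in KO as were 7.44%. These shares stand beside genes chosen for their changes and carry no test.

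Among the 5 KO hearts at 6 months, replicates 1 and 5 held the highest or the lowest values in all 4 genes. They had the highest Dio2, 459 and 494 against 281 to 327 in the other 3, and the lowest Thrb, 221 and 181 against 257 to 368. They were also lowest in Thra, with 604 and 783 against 908 to 992, and in Slc16a10, with 102 and 152 against 187 to 268. Only in Dio2 did the widest gap between KO hearts separate replicates 1 and 5 from the other 3. Both were the KO hearts of higher Sorbs2. Without them, KO against WT gave a log2 change of 3.57 for Dio2, -0.47 for Thrb, 0.12 for Thra and -0.36 for Slc16a10. That of KO+AAV against KO was 0.09 for Slc16a10. Some genes split the hearts of the other groups too. Marchf6, a gene of deiodinase turnover, had 922 and 1188 in KO replicates 1 and 5 against 2016 to 2213 in the other KO hearts. In WT hearts it had 1538 and 967 in replicates 4 and 5 against 1897 to 2743 in the rest. KO+AAV replicates 1 and 2 had 880 and 808 against 1533 and 1651 in replicates 3 and 4. WT replicates 4 and 5 were the WT libraries that expressed Xist. Among KO+AAV libraries replicates 1 and 3 expressed it, and no KO library did. What lies behind the split, Sorbs2 and the Xist or Y-linked class included, was not tested.

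Per kilobase of exon the order of the 4 genes depended on the group. In KO+AAV hearts at 6 months Thra stood at 178 normalised counts per kilobase, Thrb at 48.6, Slc16a10 at 33.3 and Dio2 at 6.33. In KO hearts Thra stood at 184, Dio2 at 63.4, Thrb at 34.8 and Slc16a10 at 25.5, and in WT hearts Thra at 192, Thrb at 54.6, Slc16a10 at 40.1 and Dio2 at 4.17. Dio2 was thus last in KO+AAV and WT hearts and second in KO hearts, where its lowest value, 48.3, was just under the highest of Thrb, 49.7. Thrb and Slc16a10 overlapped between hearts in every group at 6 months.

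The ratio of Thra to Thrb per kilobase was 3.95 ± 1.13 in KO+AAV (SD, n = 4), 5.46 ± 1.15 in KO and 3.54 ± 0.60 in WT hearts (SD, n = 5 each), with single KO hearts at 4.20 to 6.92 against WT hearts at 2.81 to 4.40. The ratio at 6 weeks was 6.35 ± 1.60 in KO and 5.57 ± 1.47 in WT hearts (SD, n = 3 each). Counts are per gene and lengths cover all annotated exons, so the ratio does not tell the transcripts of a gene apart. Per kilobase, KO hearts at 6 weeks had 120 for Thra, 19.0 for Thrb, 12.9 for Dio2 and 10.5 for Slc16a10. WT hearts had 146 for Thra, 27.5 for Thrb, 7.94 for Dio2 and 14.02 for Slc16a10.

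Hearts are mixtures of cells, and in bulk RNA fewer cells of a type and less RNA per cell cannot be told apart. The sum of 10 cardiomyocyte markers, all listed and none at 0, was 1259250 to 1898170 in KO+AAV, 844672 to 1077030 in KO and 1367110 to 1716460 in WT hearts at 6 months. The sum of 10 fibroblast markers was 32472 to 43761 in KO+AAV, 42930 to 59357 in KO and 30599 to 45640 in WT hearts. Endothelial sums were 18091 to 21446 in KO+AAV, 15486 to 18871 in KO and 18118 to 22235 in WT hearts, and those of 8 mural cell markers were 7703 to 9267 in KO+AAV, 6698 to 8130 in KO and 8433 to 12664 in WT hearts. The sum of 8 skeletal muscle markers, nearly all of it Ckm, which the cardiomyocyte list holds too, was 31153 to 39452 in KO+AAV, 8930 to 20633 in KO and 36720 to 53389 in WT hearts. KO and WT did not overlap in the cardiomyocyte, mural, skeletal muscle and atrial sums, and the macrophage sums overlapped. The part of these sums in the values of Dio2, Thrb and Slc16a10 was not tested. With libraries scaled to equal totals, which shifted the median change of all genes by 0.16, the change in KO against WT was -0.53 for Thrb and -0.55 for Slc16a10.

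For each of the 4, the 5 most similar genes were taken by Pearson's r over the 14 libraries at 6 months among 9222 expressed genes. The libraries share the 3 groups and 1 scaling, so r is given also after removal of the group means, and over the 6 libraries at 6 weeks. Dio2 was most like Fmod, a collagen-binding proteoglycan, with r of 0.98 over 14 libraries, 0.88 without group means and -0.10 at 6 weeks. Fmod averaged 30.4 in KO+AAV, 348 in KO and 8.36 in WT hearts. Panx1, Pdcd7, Anxa4 and Thbs4 followed with r of 0.97 each, among them the membrane channel Panx1 and the matrix protein Thbs4, which had r of 0.71 with Dio2 at 6 weeks.

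Thrb was most like Myh6, with r of 0.93, 0.90 without group means and 0.06 at 6 weeks. Myh6 had 402150 to 748711 normalised counts in KO+AAV, 174544 to 406774 in KO and 517771 to 676055 in WT hearts, and replicate 4 was the highest KO heart in both genes. Slc16a10 was most like Pcx, the pyruvate carboxylase of mitochondria, with r of 0.96, 0.96 without group means and -0.08 at 6 weeks. Thra was most like Adra1b, an adrenergic receptor of cardiomyocytes, with r of 0.90, 0.93 without group means and 0.83 at 6 weeks. In both pairs KO replicate 1 was the lowest heart. Among the 4 themselves, without group means, r was 0.83 between Thra and Slc16a10 and -0.63 between Dio2 and Thrb.

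**Figure D4:**
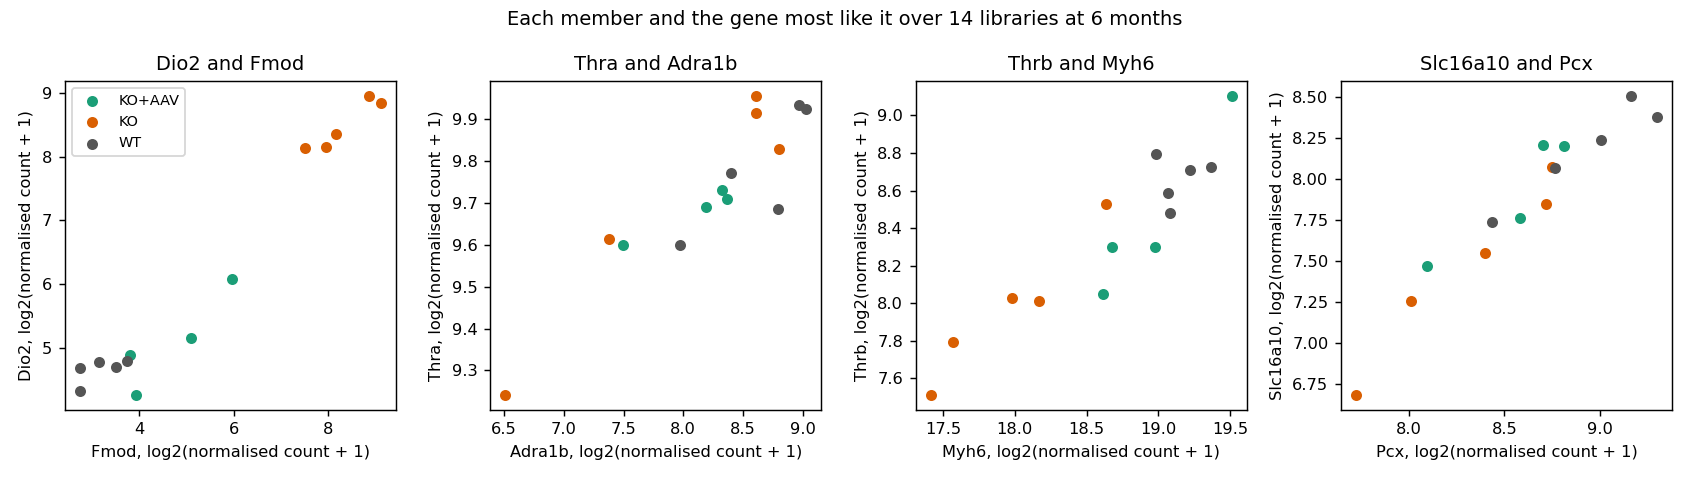
Dio2, Thra, Thrb and Slc16a10 (vertical axes) against the gene most like each (Fmod, Adra1b, Myh6 and Pcx, horizontal axes) in the 14 libraries at 6 months, both as log2(normalised count + 1), coloured by group. The KO hearts form a separate cloud for Dio2 and Fmod. For Thra and Adra1b the groups overlap, but KO replicate 1 lies below every other heart in both genes. KO replicate 5 lies below every KO+AAV and WT heart in Adra1b.

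The rest of the pathway was read from 60 other genes in 8 lists, also chosen with earlier results of these data known. Counts and adjusted p values within the lists are therefore no independent evidence on the pathway. Of these genes 55 were tested at 6 months and 54 at 6 weeks. In KO against WT hearts at 6 months, 2 were called higher and 9 lower, against 8.13% and 8.18% of all genes tested. In KO+AAV against KO hearts 5 were called higher and 4 lower, against 5.55% and 5.69% of all genes. In KO+AAV against WT hearts limma called 0 of 55, against 1.33% of all genes. Of the 55, 7 had an unadjusted p under 0.05, beside 18.3% of all genes. At 6 weeks 3 were called higher and 1 lower, against 0.378% and 0.211% of all genes. With equal totals, 73.1% in place of 49.8% of all calls in KO against WT at 6 months were increases, and 33.9% in place of 49.4% of those in KO+AAV against KO.

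Among the deiodinases and intracellular carriers, Dio1, Dio3 and Crym, none was tested. Dio3, which inactivates thyroid hormone, was listed at 0 to 5.09 in KO+AAV, 2.65 to 10.7 in KO and 0 to 2.93 in WT hearts at 6 months, too low to compare. Of the 4 other transporter genes tested, 1 was higher in KO than in WT hearts at 6 months. Slc7a5, the light chain of a carrier of large neutral amino acids and thyroid hormones, averaged 84.8 ± 23.4 in KO+AAV (SD, n = 4), 194 ± 27.6 in KO and 73.8 ± 17.1 in WT hearts (SD, n = 5 each). Its log2 change was 1.40 ± 0.20 (SE) for KO against WT (adjusted p = 0.000183) and, in KO+AAV hearts relative to KO, -1.21 ± 0.21 (SE) (adjusted p = 0.00265). Every KO heart was above every KO+AAV and WT heart.

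At 6 weeks Slc7a5 had 61.0, 87.3 and 115 normalised counts in KO hearts against 35.9, 20.4 and 33.2 in WT hearts, with an adjusted p of 0.072. The groups did not overlap, and of 54 listed genes tested at that age 8 were higher and 11 lower in KO without overlap. The share of all genes without overlap at 6 weeks is not given here, so these counts cannot be set against it. The heavy chain of Slc7a5, Slc3a2, averaged 589 ± 64.1 in KO+AAV (SD, n = 4), 673 ± 96.0 in KO and 676 ± 161 in WT hearts (SD, n = 5 each) at 6 months. Slc3a2 was not called in any of the 4 comparisons.

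Of the 3 retinoid X receptors, the partners of Thra and Thrb on DNA, Rxrg was lower in KO hearts at 6 months. It averaged 750.4 ± 127 in KO+AAV (SD, n = 4), 447 ± 146 in KO and 996 ± 149 in WT hearts (SD, n = 5 each), and no KO heart reached the WT range. Its log2 change was -1.21 for KO against WT (adjusted p = 0.000859) and 0.80 for KO+AAV against KO (adjusted p = 0.0293). The second call ended when KO replicate 5, KO+AAV replicate 1 or KO+AAV replicate 4 was left out, with adjusted p of 0.0723, 0.105 and 0.0579. Of the 12 coregulators 1 was called in KO against WT at 6 months, the mediator subunit Med1 at -0.36 (adjusted p = 0.0339). That call ended without any of 7 of the 10 hearts (WT replicates 1, 2 and 5, KO replicates 1, 2, 3 and 5), with adjusted p of 0.0572 to 0.0855.

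The genes that Dio2 needs for its selenocysteine and those that act on its protein gave 1 call in the 4 comparisons. None of the 6 genes of selenoprotein synthesis and none of the 4 genes of deiodinase turnover was called in KO against WT at either age. Unadjusted p values under 0.05 were found for 0 of 6 and 0 of 4 at 6 months. At 6 weeks they were found for 1 of 6 and 0 of 4, beside 15.4% of all genes. At 6 weeks Secisbp2, Sepsecs and Usp20 had lower values in every KO than in every WT library, with log2 changes of -0.59, -0.74 and -0.49 (adjusted p = 0.204, 0.372 and 0.353). Of all 54 listed genes tested at that age, 11 were lower and 8 higher in KO without overlap. The listed genes were chosen with earlier results known and the share of all genes is not given here, so no excess can be read from this. In KO+AAV against KO hearts Pstk, a kinase of the selenocysteine pathway, was higher by 0.59 (adjusted p = 0.0353). In that comparison 3 of 6 selenoprotein genes had an unadjusted p under 0.05, beside 20 of all 55 listed genes tested. The 3 were Pstk, Secisbp2 at 0.53 (adjusted p = 0.161) and Trnau1ap at 0.46 (adjusted p = 0.0878). The share of all genes under that threshold is not given here for this comparison or for KO against WT at 6 months. The Pstk call ended without KO replicate 2, 3, 4 or 5 or KO+AAV replicate 1, with adjusted p of 0.0542 to 0.142. Pstk shares 58.8% of its exon with genes on the other strand.

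Of all genes tested, 8.13% were called higher and 8.18% lower in KO than in WT hearts at 6 months. Of 20 genes listed here as raised by thyroid hormone, not all from work on the heart, 0 were called higher and 7 lower. Their median log2 change was -0.47, beside 0.00 for all genes tested. Slc2a4, the insulin-regulated glucose transporter, changed by -1.11 (adjusted p = 0.000257) and averaged 5397 ± 1288 in KO+AAV (SD, n = 4), 3196 ± 642 in KO and 6783 ± 452 in WT hearts (SD, n = 5 each). Slc25a4, the mitochondrial exchanger of ADP and ATP, changed by -0.89 (adjusted p = 0.00241), the potassium channel Kcnd2 by -2.06 (adjusted p = 0.00683) and Ppargc1a, a coactivator of mitochondrial genes, by -1.05 (adjusted p = 0.00728). The other 3, named after their values were seen, were Myh6 at -1.19 (adjusted p = 0.0126), Thrsp at -1.001 (adjusted p = 0.0143) and the pacemaker channel Hcn2 at -1.76 (adjusted p = 0.0204). Hcn2 was no longer called without WT replicate 1, KO replicate 1 or KO replicate 5, with adjusted p of 0.0637, 0.0516 and 0.0604.

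Without both KO hearts of higher Sorbs2, Myh6, Hcn2 and Ppargc1a were no longer called, while Slc2a4, Kcnd2, Slc25a4 and Thrsp were. The cardiomyocyte markers, which include Myh6, were lower in KO than in WT hearts in sum, without overlap, and their part in this list was not tested. In KO+AAV against KO hearts 2 of the 20 were called higher, Slc25a4 at 0.93 (adjusted p = 0.00587) and Slc2a4 at 0.75 (adjusted p = 0.0119). Another 2 were called lower, Hr, a corepressor, at -1.18 (adjusted p = 0.0202) and Atp1b1, a subunit of the sodium pump, at -0.90 (adjusted p = 0.0227). Slc2a4, Hr and Atp1b1 were not called without KO+AAV replicate 1 (adjusted p of 0.0539, 0.0857 and 0.0948), nor Hr without KO replicate 5 (0.0517), nor Atp1b1 without KO+AAV replicate 2 (0.0701).

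Of 6 genes listed here as lowered by thyroid hormone, Myh7 was called higher in KO than in WT hearts at both ages. It averaged 30238 ± 20794 in KO+AAV (SD, n = 4), 139009 ± 45930 in KO and 14182 ± 5578 in WT hearts (SD, n = 5 each) at 6 months, with a log2 change of 3.32 for KO against WT (adjusted p = 6.97e-05) and -2.46 for KO+AAV against KO (adjusted p = 0.00349). At 6 weeks it averaged 14042 ± 10423 in KO and 1250.0 ± 449 in WT hearts (SD, n = 3 each), a log2 change of 3.31 (adjusted p = 0.00791). Myh6 and Myh7 share 20.2% and 15.6% of their 50-base exon words, so reads may be split between them. The other 5 were not called in KO against WT, and the median of the 6 was -0.53. Adcy6, an adenylyl cyclase, was called higher in KO+AAV than in KO hearts at 0.71 (adjusted p = 0.0484), a call that ended without any of the 5 KO hearts or KO+AAV replicates 1 or 2, with adjusted p of 0.0595 to 0.164. With the Xist or Y-linked class as a covariate 6 of the 9 calls in KO+AAV against KO ended: Slc2a4 (adjusted p = 0.0559), Hr (0.101), Rxrg (0.104), Atp1b1 (0.122), Pstk (0.18) and Adcy6 (0.183). Xist was expressed in 2 of 4 KO+AAV and 0 of 5 KO hearts.

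At 6 weeks the called genes of the lists were others, Myh7 and Thrsp excepted. Kcna5, a potassium channel, averaged 798 ± 146 in KO and 267 ± 66.8 in WT hearts (SD, n = 3 each), a log2 change of 1.59 (adjusted p = 0.0217). Thrsp, a regulator of fat synthesis that is also high in fat tissue, averaged 377 ± 61.2 in KO and 155 ± 37.0 in WT hearts (SD, n = 3 each), a log2 change of 1.29 (adjusted p = 0.0314). Ucp3, a mitochondrial carrier of muscle, averaged 204 ± 42.8 in KO and 840.1 ± 467 in WT hearts (SD, n = 3 each), a log2 change of -1.91 (adjusted p = 0.0318). Atrial marker sums at 6 weeks lay between 121763 and 225488 in KO and between 95676 and 183230 in WT libraries, and fat marker sums are given above. Fibroblast sums were 41389 to 47585 in KO against 31774 to 38461 in WT libraries, and endothelial sums 15108 to 15542 in KO against 11425 to 12731 in WT libraries, both without overlap. The part of any of these cell types or tissues was not tested. Without WT6 all 4 calls at 6 weeks ended, with adjusted p of 0.0508 to 0.163; Kcna5, Thrsp and Ucp3 were also lost without KO3 (0.135 to 0.188) or KO4 (0.109 to 0.159), and Thrsp without WT16 (0.0515).

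The KO effect of 3 of 54 listed genes differed between ages, beside 4.08% of the 12709 genes tested at both. As the log2 change at 6 months minus that at 6 weeks, the difference was -2.29 ± 0.34 (SE) for Thrsp (adjusted p = 0.000162), -2.01 ± 0.36 (SE) for Kcna5 (adjusted p = 0.00139) and -1.51 ± 0.39 (SE) for Ppargc1a (adjusted p = 0.0315). Thrsp changed by -1.001 at 6 months and 1.29 at 6 weeks. The Ppargc1a difference ended without WT6, WT16, KO3 or KO4 at 6 weeks or WT replicate 2 or KO replicate 5 at 6 months, with adjusted p of 0.0525 to 0.121.

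**Figure D5:**
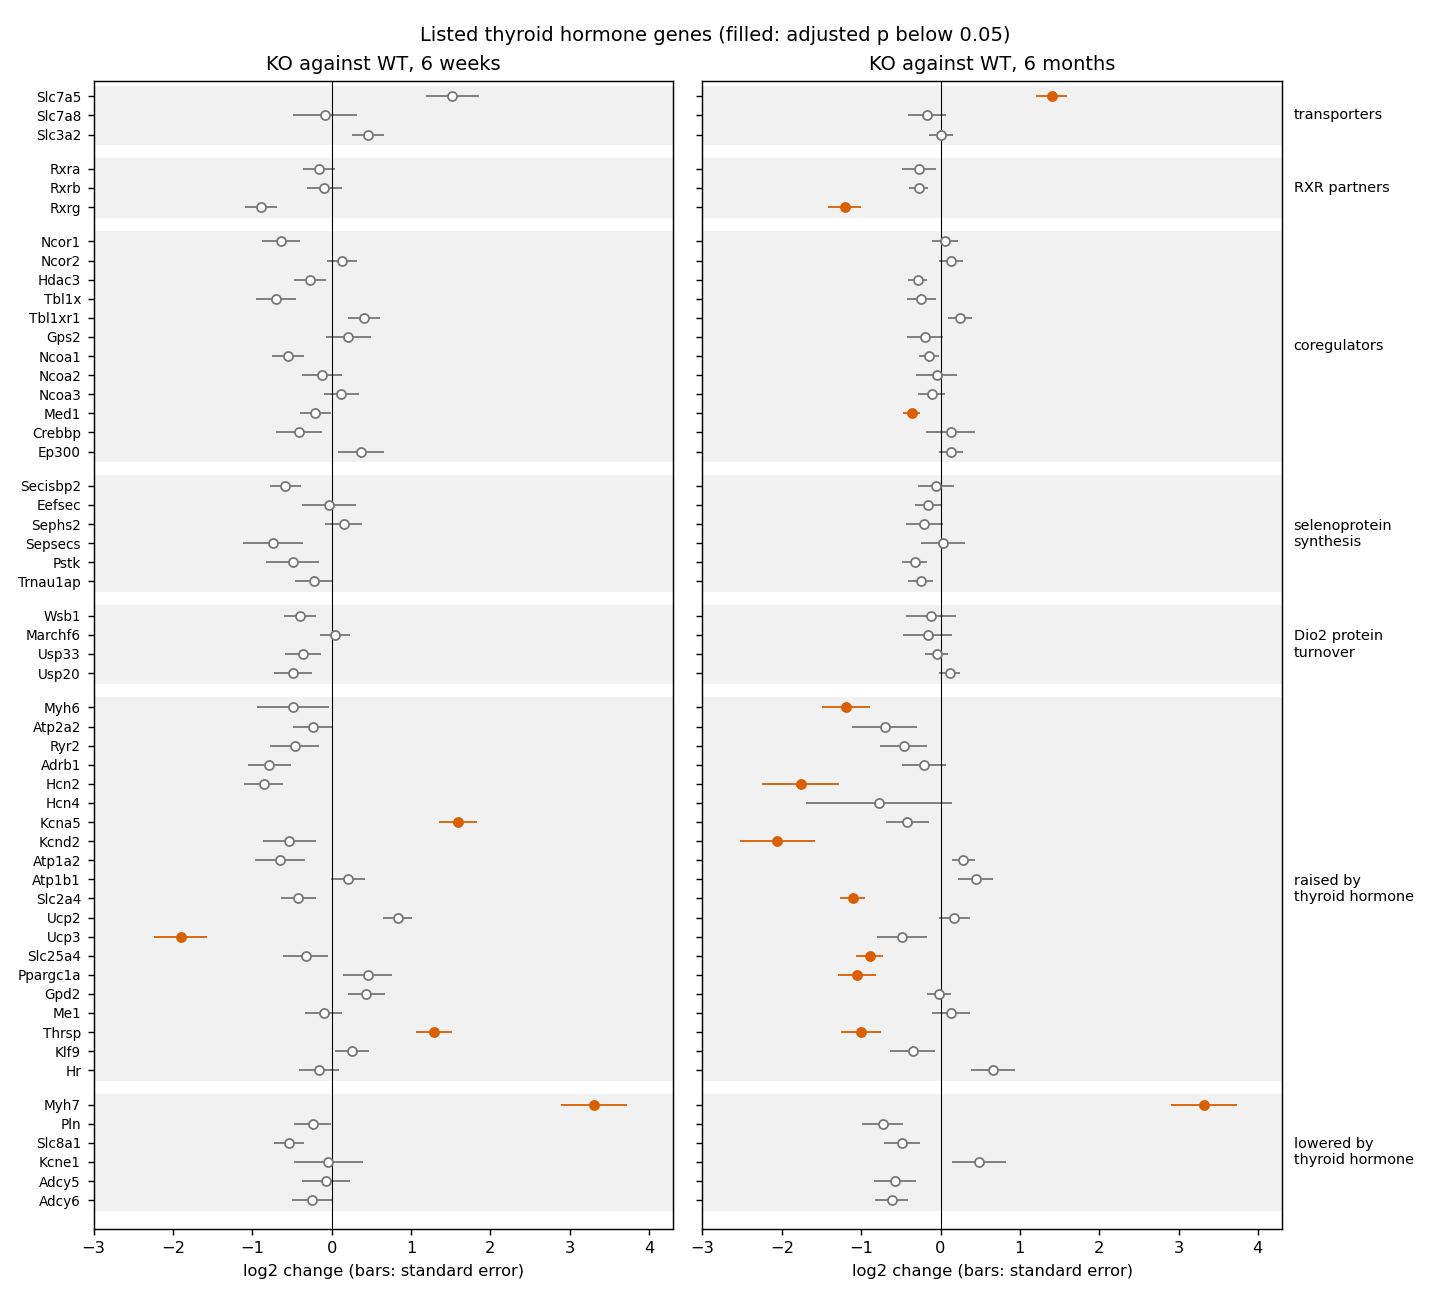
Log2 change of KO against WT hearts (points, with standard errors as bars) for the listed thyroid hormone genes tested at 6 weeks (left) and 6 months (right), grouped by list; filled points have an adjusted p under 0.05. Myh7 lies at 3.31 and 3.32, and 7 of the 20 genes listed as raised by thyroid hormone are filled below 0 at 6 months.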

How the data were processed

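The authors deposited 1 table of normalised counts per age, a signal that is fractional and never negative; no source used here puts both tables on 1 scale, so libraries were compared within a table. The build was mm10 per the submitters' processing notes; libraries were stranded poly(A) libraries per the labels' protocols. Not given in the sources used here are the aligner, counter and annotation. Low values lay near, but mostly not exactly at, multiples of 1 step per library: within 0.1 of a step for 93.5% to 95.8% of them at 6 months and 83.3% to 95.8% at 6 weeks. Whole reads were therefore not taken as recovered, and no count test was run. Columns at 6 weeks matched a group, not a sample.

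Values were taken as log2(value + 1), and genes with at least 10 in 3 (6 weeks) or 4 libraries (6 months) entered limma 3.58.1 in R 4.3.3, two-sided, with a mean-variance trend and Benjamini-Hochberg adjustment over all genes tested; the script was tested on simulated data. The 3 groups at 6 months shared 1 model. Ages were compared by the difference of log2 changes over the combined standard error. The 4 genes and the lists were chosen with earlier results of these data known. Named are the 4, Sorbs2, Nr1d1, up to 4 called genes of smallest p per list and comparison, any gene of lists of up to 10, and the 5 genes most like each of the 4 (mean of at least 100). Replicates are separate mice. Alternatives changed scaling, filter, pseudocount, trend, Xist or Y-linked class as a covariate, replicate block and libraries left out. Tables and plots used Python 3.11.15, pandas 2.3.3 and matplotlib 3.10.9. Of the listed genes, 1 is counted but not reported here by itself.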

Additional observations from a re-analysis of the deposited data

Results flagged for a closer look

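Among 69 groups of 4 or 5 hearts over 23 genes, 5 had 1 heart far from the rest; chance gives about 1 in 20 groups. These were Dio2 at 18.9 in WT replicate 3, Thrsp at 813 in WT replicate 1, Slc7a5 at 242 in KO replicate 5, Pstk at 380.1 in KO+AAV replicate 1 and Adcy6 at 6122 in WT replicate 5, all at 6 months.

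The KO effect at 6 months minus that at 6 weeks passed its test for Kcna5 at -2.01, Ppargc1a at -1.51 and Thrsp at -2.29.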

How the results depend on the processing

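Dio2, Thra, Thrb and Slc16a10 moved by less than the spread between replicates, 1 SD within groups, in all 308 alternatives, and 6 values, all of Thra, had the opposite sign. That bar leaves room for large moves. At 6 months Slc16a10 ran from -0.89 to -0.36 in KO against WT and from 0.09 to 0.57 in KO+AAV against KO. Thrb ran from -0.82 to -0.47 and from 0.20 to 0.60 in the same comparisons. Leaving out 1 library gave Dio2 3.72 to 3.93 in KO against WT, -3.73 to -3.12 in KO+AAV against KO and 0.33 to 0.98 at 6 weeks.

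Calls over all genes and over the listed genes moved more, and the cause was not tested beyond the libraries or genes each setting leaves out. At 6 weeks, 78 calls became 36 with equal totals, 12 without the trend and 189 with the Xist or Y-linked class as a covariate; the 4 listed calls became 0 without the trend. In KO against WT at 6 months, 2189 and 11 became 1402 and 7 without the 2 KO hearts of higher Sorbs2. In KO+AAV against KO, 1509 and 9 became 542 and 3 with the class covariate and 335 and 3 in Y-linked libraries alone. In KO+AAV against WT, 178 became 102 with 2 groups alone and 46 in Y-linked libraries alone, and 0 listed calls became 2 with equal totals and 1 with quantile scaling.

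With 1 library left out, calls over all genes and listed calls ranged from 7 to 163 and 0 to 5 at 6 weeks, 1520 to 2115 and 9 to 11 in KO against WT at 6 months, 568 to 1816 and 3 to 10 in KO+AAV against KO, and 107 to 472 and 0 to 1 in KO+AAV against WT; differences between ages ranged from 205 to 585 (main 518).

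No paired analysis was possible at 6 weeks because the columns carry no replicate number. At 6 months like-numbered libraries correlated at -0.391 to 0.253 after removal of group means, 7 of 13 pairs above 0.1. The labels do not say whether equal numbers pair hearts, and these values cannot decide it. The replicate block gave 2071 calls in KO against WT, 1764 in KO+AAV against KO and 183 in KO+AAV against WT, and 3.84 and -3.34 for Dio2. The reads behind each value were not recovered.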
